A study of Homo sapiens with 65 samples.

Results

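NPPA and NPPB, the genes of the atrial and the B-type natriuretic peptide, are described here in 65 3′ RNA-seq libraries of human cardioids. They are 2 of the 58735 genes of the deposited count table, and both passed the filter on low counts in each arm of the study. The pair was chosen by name, because NPPB had stood out for its fold change at day 4.5 in the HAS2 knockout and under early hyaluronidase. Every comparison that uses day 4.5 libraries is therefore given as a description, with no test, and tests are given for days 1.5, 2.5 and 7.5.

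Natriuretic peptides are hormones that the heart muscle secretes. NPPA is a marker of the working chamber myocardium of the embryonic heart, and NPPB is raised in heart muscle under load. Each peptide is cut from a precursor by proteases such as CORIN and FURIN, binds the receptor NPR1, which makes cyclic GMP, and is cleared by the receptor NPR3. Transcription of both genes is known to respond to cardiac factors of the GATA, NK2, T-box and MEF2 families.

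Cardioids are heart-like aggregates grown from pluripotent stem cells, here from the induced line WTC-11 with left-ventricular differentiation. Hyaluronan, a long sugar chain between cells, is made by the enzyme HAS2 and digested by hyaluronidase. The genotype arm set wild-type lines (WT, labelled WT, WT_TU, cl43_WT_UT and TNT2) against clones labelled HAS2-KO (KO, clones cl4, cl14, cl46 and cl51). Day 1.5 had 5 WT and 6 KO libraries, days 2.5 and 4.5 had 6 of each, and day 7.5 had 3 of each. Several KO libraries are repeats of clone cl4, and the day 7.5 KO libraries come from cl4 (repeats R2 and R3) and cl14. The enzyme arm used WT genotype throughout, with replicates 1, 2 and 3 from lines named TNNI1, WT and TNNT2. Cardioids were left untreated, given hyaluronidase from day 1.5 until collection (HAse1.5), or given it from day 2.5 until collection (HAse2.5). There were 3 libraries per group, with untreated and HAse1.5 at day 2.5 and all 3 conditions at days 4.5 and 7.5. Each library pooled 8 cardioids, and per the growth protocol cells were reseeded from a flat culture into aggregates at day 1.5. The labels do not say whether the day 1.5 libraries were collected before or after reseeding. The labels speak of biological replicates without saying which cultures were separate, so p-values measure the spread between these libraries.

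Total counts ranged from 831062 to 3574843 per library, with a median of 1570954. Levels are given in CPM, counts scaled to a library total of 1000000. A group in which a gene had no count gets a limit of 3 counts over its pooled libraries, and a fold against it is written "at least". Such limits, and the 95% intervals of ratios of pooled counts, cover counting error only. HAS2 RNA does not check the KO label: its CPM ranges in WT and KO overlapped at all 4 days, for example 187 to 363 in WT and 271 to 378 in KO at day 7.5. At days 4.5 and 7.5 all 10 cardiomyocyte markers on the list (among them TNNT2, ACTN2 and MYL7) had a count in every library of every group. In bulk RNA, fewer cells of a type and less RNA per cell cannot be told apart, which holds for every level below.

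NPPA (ENSG00000175206) lies on chromosome 1 of GRCh38, from 11845709 to 11848345 on the minus strand. NPPB (ENSG00000120937) lies from 11857464 to 11858931 on the same strand, with 9118 bases between them. CLCN6 (ENSG00000011021), a chloride transporter gene, runs from 11806096 to 11848079 on the plus strand, and 855 of the 1120 exonic bases of NPPA lie inside it. Of these, 286 overlap exons of CLCN6, while NPPB shares no exonic base with it. The strand setting of the counting is not given in the sources used here, so reads of NPPA and CLCN6 may have been mixed. At day 2.5 CLCN6 had 15 to 168 counts in each of 18 libraries while NPPA had 0 to 7. In the 6 HAse1.5 libraries of days 4.5 and 7.5, CLCN6 had 13 to 39 counts and NPPA 0 to 3. CLCN6 RNA was thus present in libraries with almost no NPPA counts.

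**Figure D1:**
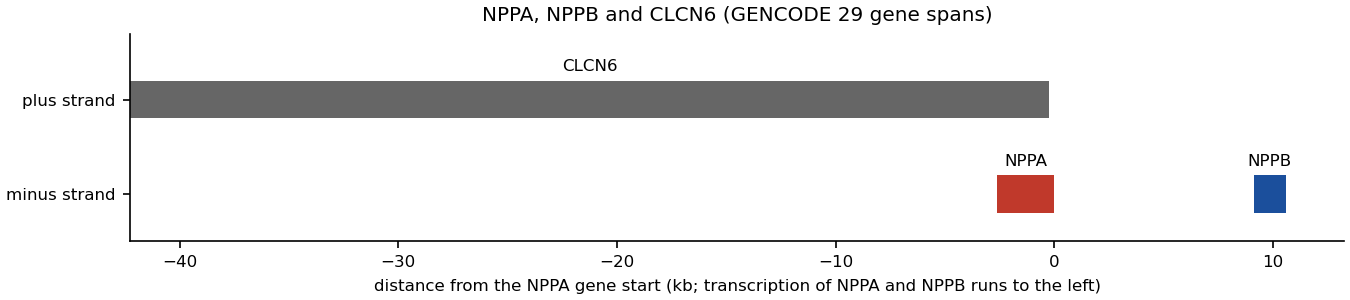
Map of the gene spans of NPPA, NPPB and CLCN6, with distance from the NPPA gene start in kb on the horizontal axis and the strand on the vertical axis (GENCODE 29). NPPA lies almost wholly inside CLCN6 on the other strand, and NPPB lies beyond the start of NPPA.

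The promoter of NPPA is shown because the factors known to act on this gene were measured in the same libraries. The RefSeq table (GRCh38.p14) gives the 250 bases before its start site, which lies inside the GENCODE span of the gene, as chr1:11847784-11848033, minus strand, with motif matches in capitals.
NPPA promoter: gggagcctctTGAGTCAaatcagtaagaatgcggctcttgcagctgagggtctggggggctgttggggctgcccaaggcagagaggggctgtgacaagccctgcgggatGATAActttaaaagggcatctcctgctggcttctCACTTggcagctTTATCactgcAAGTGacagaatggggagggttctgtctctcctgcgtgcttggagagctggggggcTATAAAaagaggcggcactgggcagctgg
The 6 motifs were searched on both strands, with letters given 5′ to 3′. The core of GATA factor sites, GATAA, matched 2 times, with its first base 141 and 95 bases before the start, and 20.4% of the 35116 promoters in the table hold it. The NKX2-5 site AAGTG matched 2 times, at 107 and 85 bases, and is in 37.6% of promoters. The AP-1 site TGANTCA matched at 240 bases (6.57% of promoters). The TATA box TATAAA matched at 29 bases (10.7% of promoters). The T-box element GTGTGA, held by 9.9% of promoters, and the TEAD site GGAATG, held by 11.9%, have no match in this window, and no matches overlapped. These matches describe the sequence and are not evidence of binding.

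The 2 genes followed different courses over the 16 groups. NPPA was highest at day 7.5, with 268 ± 137 CPM in WT, 131 ± 160 CPM under HAse2.5, 131 ± 21.2 CPM in KO and 266 ± 172 CPM in untreated libraries (each SD over n = 3). At day 4.5 it stood at 46.4 ± 62.8 CPM in the 6 WT and at 38.4 ± 59.6 CPM in the 3 untreated libraries (SD), and at 0 to 3.57 CPM in the means of the other 10 groups. NPPB was highest at day 1.5, with 27.7 ± 25.7 CPM in KO (SD, n = 6) and 23.1 ± 18.8 CPM in WT libraries (SD, n = 5). Untreated day 4.5 libraries (14.7 ± 12.8 CPM, n = 3) and WT day 4.5 libraries (13.7 ± 13.0 CPM, n = 6) came next, then untreated day 7.5 libraries at 9.59 ± 9.29 CPM (SD, n = 3). The other 11 groups had means from 0 to 2.58 CPM, and 5 of them had no NPPB count: WT and KO at day 2.5, KO at day 7.5, and HAse1.5 at days 4.5 and 7.5. For each gene, the ranges of every pair of neighbours in the order of group means overlapped, so the order has no sharp step between neighbours.

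**Figure D2:**
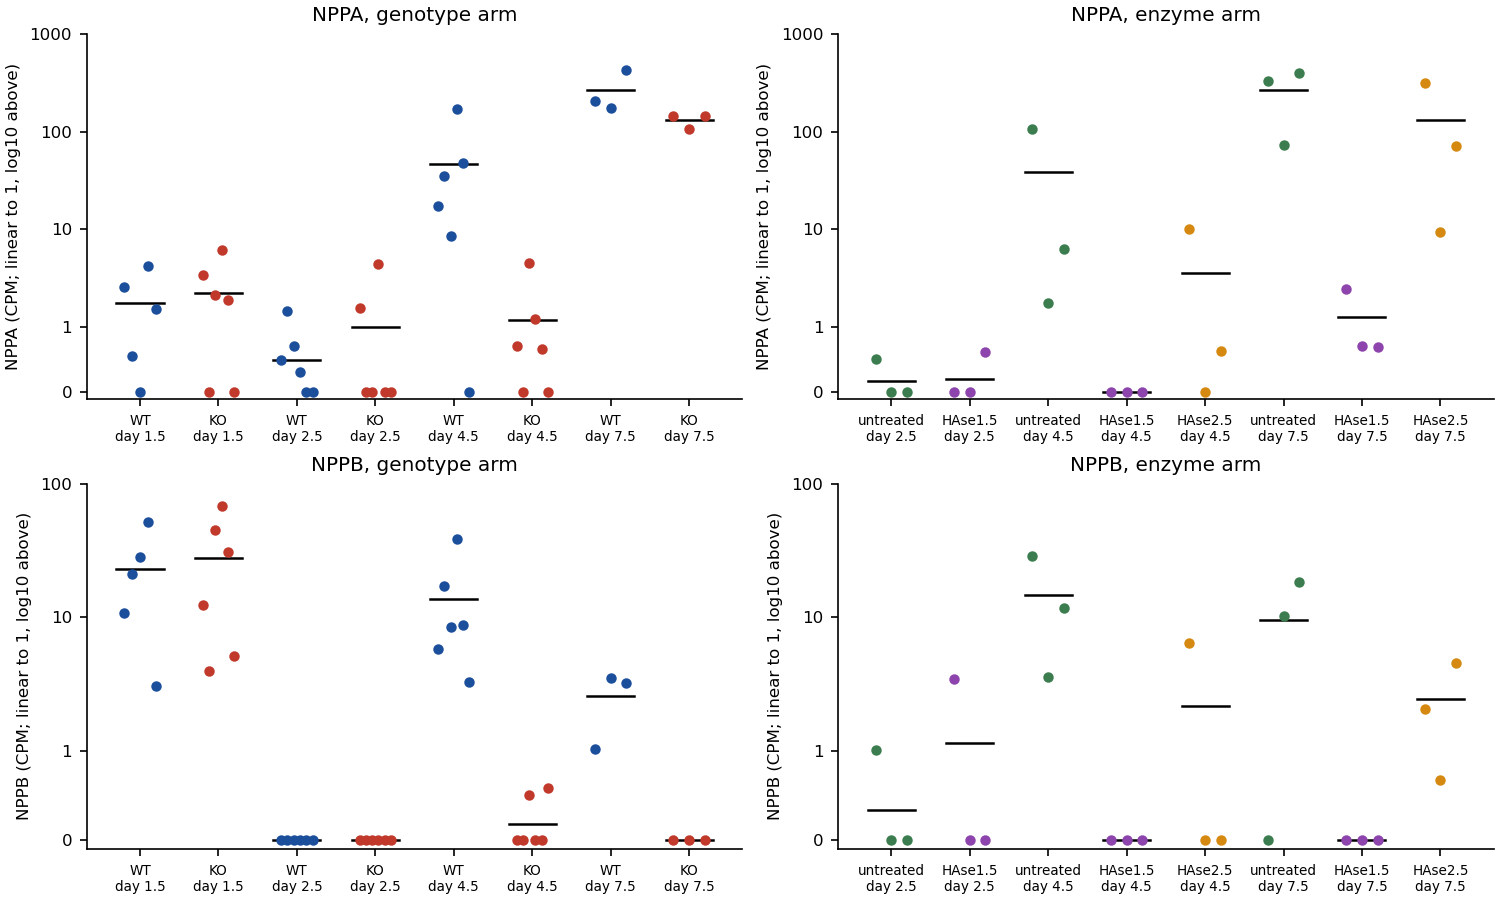
NPPA (upper panels) and NPPB (lower panels) in CPM for each of the 65 libraries, by group, on an axis that is linear up to 1 CPM and log10 above. Points are libraries and bars are group means. NPPA is high at day 7.5 in every group except HAse1.5, and NPPB is present at day 1.5, near 0 at day 2.5 and absent from the KO and HAse1.5 libraries at day 7.5.

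At day 1.5 NPPB RNA was present in all 11 libraries, before heart muscle genes were on: the 10 cardiomyocyte markers summed to between 42.2 and 138 CPM. Among WT libraries NPPB had 52.1 CPM in WT_TU_R1, 28.2 in WT_R2, 21.3 in WT_R1, 10.9 in TNT2 and 3.08 in cl43_WT_UT. Among KO libraries it had 68.6 CPM in cl4_R2, 45.3 in cl4_R1, 31.0 in cl4_R3, 12.4 in cl14_R1, 5.13 in cl51_R1 and 3.99 in cl46_R1. The WT and WT_TU lines and clone cl4 were high and the other lines low, in WT and KO alike, and the groups overlapped. KO differed from WT by 0.20 on the log2 scale (95% interval −1.05 to 1.44, edgeR quasi-likelihood with Benjamini-Hochberg adjustment, adjusted p 0.975). NPPA had 0 to 14 counts per library at this day, with 0.17 between KO and WT (edgeR adjusted p 0.993). Neither gene passed the threshold of 0.05, and 0.0% of the 13797 genes tested did (0 genes in edgeR and 0 in DESeq2, with 591 at an unadjusted p under 0.05).

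Library numbers of the genotype arm run in 3 blocks, A to C, and the block moves with these day 1.5 levels. Block A (WT_R1, WT_TU_R1 and cl4_R1) had 21.3, 52.1 and 45.3 CPM of NPPB, and block B (WT_R2 and cl4_R2) 28.2 and 68.6 CPM. Block C had 3.08 and 10.9 CPM in WT against 3.99, 5.13, 12.4 and 31.0 CPM in KO, where the highest is again clone cl4. The libraries of block A are also the deepest, at 3248079 to 3574843 counts. Whether line, block or depth sets these levels was not tested.

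By day 2.5 NPPB counts had gone. All 12 WT and KO libraries had 0 counts, at least 111-fold lower than at day 1.5 in WT and at least 91.7-fold lower in KO. These steps were added after the data were seen, and both passed the threshold (edgeR adjusted p 3.15e-06 in WT and 3.74e-06 in KO), as did 15.1% and 16.1% of all genes in that direction. In the enzyme arm at day 2.5, only replicate 1 had NPPB counts, 2 in the untreated and 5 in the HAse1.5 library. NPPA had 0 to 4 counts in WT, 0 to 7 in KO, and 0 or 1 in the enzyme arm. At day 2.5 NPPA did not pass the threshold in KO against WT (log2 fold change 0.85, edgeR adjusted p 0.84), where 0.993% of genes did. Nor did NPPB in HAse1.5 against untreated (1.32, edgeR adjusted p 0.972), where 1.15% of genes did.

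At day 4.5 both genes were on in WT and almost silent in KO. NPPA in WT had 471 counts in WT_TU_R1 (169 CPM), 76 in WT_TU_R2 (47.6 CPM), 113 in WT_R1 (35.3 CPM), 30 in TNT2 (17.3 CPM), 13 in WT_R2 (8.47 CPM) and 0 in cl43_WT_UT. In KO it had 9 counts in cl4_R1 (4.57 CPM), 2 in cl4_R2, 1 each in cl4_R3 and cl14_R1, and 0 in cl46_R1 and cl51_R1. The groups overlapped, because cl43_WT_UT was at 0. Pooled NPPA was 44.1-fold lower in KO (counting interval 25.6 to 83.3). The fitted log2 fold change of −5.22 was −4.13 without WT_TU_R1 and −6.50 without cl4_R1. Block A had 35.3 and 169 CPM of NPPA in WT against 4.57 CPM in KO. Block B had 8.47 and 47.6 CPM against 1.22 CPM, and block C 0 and 17.3 CPM against 0 to 0.712 CPM. Most KO libraries of this day are of block C, and the part of the block was not tested.

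NPPB in WT at day 4.5 had 38.5 CPM in WT_TU_R1, 17.2 in WT_R1, 8.77 in WT_TU_R2, 8.47 in WT_R2, 5.78 in TNT2 and 3.30 in cl43_WT_UT. In KO it had 1 count in cl4_R1, 1 in cl51_R1 and 0 in the other 4 libraries, so all 6 KO libraries lay below all 6 WT libraries. Pooled NPPB was 83.2-fold lower in KO (counting interval 22.7 to 692), and the fitted log2 fold change went from −5.83 to −5.18 without WT_TU_R1. Of all genes tested, 3.74% passed the threshold in this comparison. These values chose the pair and support nothing further. The highest libraries of both genes came from lines WT_TU and WT, the cl43_WT_UT library was lowest in both.

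Heart muscle genes were on in KO at day 4.5, at lower sums. The 10 cardiomyocyte markers summed to 33544 to 64074 CPM in WT and 16790 to 44928 CPM in KO. Relative to TNNT2, the cardiac troponin T gene, NPPA had 0 to 30.1 counts per 1000 TNNT2 counts in WT and 0 to 1.08 in KO. NPPB had 0.940 to 6.84 in WT and 0 to 0.321 in KO, and did not overlap. CLCN6 had 13.8 to 77.0 CPM in WT and 14.7 to 23.8 CPM in KO at this day, with its highest value in WT_TU_R1, the library with the highest NPPA. Whether CLCN6 reads account for part of the NPPA counts there was not tested.

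At day 7.5 NPPA RNA was present in every WT and KO library. WT libraries had 426 CPM in WT_TU_R2, 206 in WT_R1 and 173 in WT_R2, and KO libraries 144 in cl14_R1, 143 in cl4_R3 and 107 in cl4_R2. All 3 KO libraries lay below all 3 WT libraries, with a pooled ratio of 2.02 (counting interval 1.83 to 2.22). The log2 fold change was −1.07 (95% interval −2.67 to 0.54), which did not pass the threshold (edgeR adjusted p 1). With library block as a term it was −0.01. Block A holds only WT and block C only KO libraries at this day. Within block B, KO cl4_R2 (107 CPM) lay below WT_R2 (173 CPM) and WT_TU_R2 (426 CPM).

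NPPB at day 7.5 had 5, 5 and 2 counts in the WT libraries (3.49, 3.23 and 1.03 CPM) and 0 in all 3 KO libraries, at least 3.88-fold lower over the pooled libraries. The difference did not pass the threshold (edgeR adjusted p 0.852, unadjusted p 0.0363), and 12 counts in WT leave little to test. Thus neither gene passed at day 7.5, where 0.348% of genes passed and 0.29% were called lower in KO.

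Under early hyaluronidase both genes were at 0 at day 4.5. Untreated replicates 1, 2 and 3 had 157, 2 and 9 counts of NPPA (107, 1.78 and 6.26 CPM) and 42, 4 and 17 counts of NPPB (28.7, 3.55 and 11.8 CPM). The 3 HAse1.5 libraries had no count of either gene, at least 62.4-fold lower for NPPA and at least 23.4-fold for NPPB over pooled libraries. Without untreated replicate 1, which held most of these counts, the limits were 6.42-fold and 12.2-fold. Under HAse2.5, replicate 1 had 14 counts of NPPA and 9 of NPPB, replicate 3 had 1 and 0, and replicate 2 had none. Pooled NPPA was 11.8-fold lower (counting interval 6.93 to 21.5) and NPPB 7.35-fold lower (3.64 to 16.8) than in untreated libraries, with overlapping ranges. The TNNI1 line (replicate 1) was highest in each gene and condition with counts, and without its untreated library the NPPA log2 fold change of HAse2.5 went from −3.48 to −0.25, and without its HAse2.5 library to −6.53. For NPPB it went from −2.78 to −1.83 and to −7.41. In these comparisons 3.48% (HAse1.5) and 0.22% (HAse2.5) of 12748 genes passed the threshold.

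Cardiomyocyte markers were lower in the same libraries. Their sum was 26460 to 51655 CPM in untreated, 19395 to 34463 CPM in HAse2.5 and 5244 to 20048 CPM in HAse1.5 libraries at day 4.5. NPPA per 1000 TNNT2 counts was 22.4, 0.628 and 2.72 in untreated replicates 1, 2 and 3, and 0 in all 3 HAse1.5 libraries. The part of the lower heart muscle sum in the missing NPPA and NPPB counts was not tested.

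At day 7.5 NPPA was almost absent under early hyaluronidase. Untreated replicates 1, 2 and 3 had 367, 113 and 538 counts (327, 72.1 and 399 CPM), and HAse1.5 replicates 3, 1 and 1 counts (2.45, 0.719 and 0.697 CPM). The groups did not overlap, and pooled NPPA was 204-fold lower under HAse1.5 (counting interval 87.3 to 631). In edgeR, NPPA fell by 7.77 on the log2 scale with an SE of 1.73 (edgeR adjusted p 0.0215), lower in 3 of 3 lines, where 1.92% of genes were called lower and 1.41% higher. With line as a block it fell by 8.45 (edgeR adjusted p 3.9e-05). The call was lost without untreated replicate 1 (edgeR adjusted p 0.0559), untreated replicate 3 (0.0673), or HAse1.5 replicate 1 (0.107), 2 (0.105) or 3 (0.0739), while the log2 fold change stayed between −8.50 and −7.33.

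NPPB at day 7.5 had 0, 16 and 25 counts in untreated replicates 1, 2 and 3 (0, 10.2 and 18.5 CPM) and 0 in all 3 HAse1.5 libraries, at least 13.7-fold lower over pooled libraries. Untreated replicate 1, the line with the most NPPB at day 4.5, had none at day 7.5, so the ranges overlapped. The difference missed the threshold (edgeR adjusted p 0.0893) and passed with line as a block (0.0439) and with no filter on low counts (0.000123). CLCN6, which overlaps NPPA, had 12.5 ± 3.23 CPM in HAse1.5 and 13.6 ± 2.95 CPM in untreated libraries (SD, n = 3 each, edgeR adjusted p 0.764).

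When hyaluronidase began at day 2.5, NPPA RNA at day 7.5 varied by line. HAse2.5 replicates 1, 2 and 3 had 452, 14 and 108 counts (313, 9.39 and 70.7 CPM), close to untreated in the TNNI1 line and lower in the WT and TNNT2 lines. The log2 fold change against untreated was −1.06 (95% interval −3.13 to 1.02, edgeR adjusted p 0.692), −2.03 with line as a block (0.0868), and −2.82 without HAse2.5 replicate 1 (0.354). NPPB had 3, 1 and 7 counts (2.08, 0.671 and 4.58 CPM), 4.12-fold lower in the pooled ratio (counting interval 2.08 to 8.89, edgeR adjusted p 0.496). Its log2 fold change of −2.02 was −1.14 without untreated replicate 3 and −2.81 without HAse2.5 replicate 3. Neither gene passed, and 0.659% of genes did, 0.314% called lower.

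The start day was compared directly at day 7.5. All 3 HAse1.5 libraries lay below all 3 HAse2.5 libraries in NPPA, with a pooled ratio of 104 (counting interval 44.4 to 322). HAse2.5 replicate 1 held 452 of the 574 HAse2.5 counts. The log2 fold change of −6.72 (SE 1.75), which was −4.95 without HAse2.5 replicate 1 and −7.45 without HAse1.5 replicate 1, did not pass the threshold (edgeR adjusted p 0.324), and 0.00784% of genes, which is 1 gene, did (719 at an unadjusted p under 0.05, and 39 in DESeq2). With line as a block NPPA was lower by 6.42 and passed (edgeR adjusted p 0.00675), and in DESeq2 it passed as well (0.0433). NPPB was at least 3.33-fold lower with HAse1.5 (0 against 11 counts, edgeR adjusted p 0.917).

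**Figure D3:**
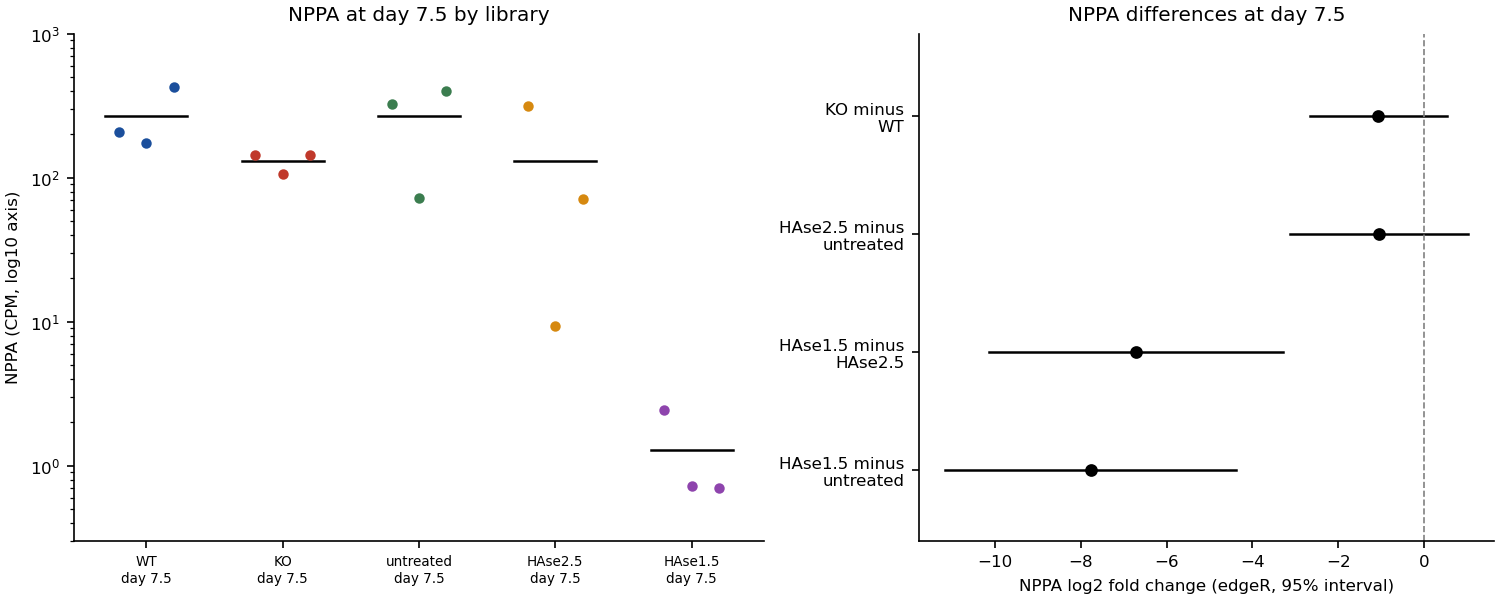
NPPA at day 7.5: CPM per library on a log10 axis with group means as bars (left), and log2 fold changes from edgeR with unadjusted 95% intervals (right). The 3 HAse1.5 libraries sit between 0.697 and 2.45 CPM, below every other day 7.5 library, and only the 2 intervals that involve HAse1.5 lie wholly below 0.

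The effects of the clone and of the enzyme on NPPA at day 7.5 were set against each other in 1 fit of all 65 libraries. In the separate fit of each arm, NPPA was lower by 1.07 (log2) in KO against WT and by 7.77 under HAse1.5 against untreated. In the fit of all 65 libraries the signed difference, KO effect minus HAse1.5 effect, was 6.72 (SE 1.68), a smaller fall in KO. This difference did not pass the threshold (edgeR adjusted p 0.116), and 0.0925% of 14047 genes did. It passed with blocks for library number and line (8.45, edgeR adjusted p 0.00132) and in a fit of only the libraries compared (6.73, 0.0225). The arms have separate controls, and WT and untreated libraries had overlapping NPPA levels at this day.

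Over time NPPA rose in WT, KO and untreated cardioids. From day 2.5 to day 7.5 it rose by 8.84 on the log2 scale in WT (edgeR adjusted p 1.75e-09), 6.93 in KO (1.35e-07) and 9.86 in untreated libraries (0.00166). Without 1 day 2.5 library each, the rises were 9.58 (WT_R1), 8.27 (KO cl4_R2) and 11.7 (untreated replicate 1), and they kept the call. In HAse1.5 libraries the change was 1.99 (95% interval −6.29 to 10.3), from 1 to 5 counts over 3 libraries, and did not pass (edgeR adjusted p 0.759). The share of genes called higher was 18.1% in WT, 17.5% in KO, 17.8% in untreated and 18.3% in HAse1.5 libraries.

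In KO the NPPA rise came after day 4.5. KO libraries pooled 10 counts at day 2.5, 13 at day 4.5 and 629 at day 7.5, while WT libraries pooled 7, 703 and 1309. The KO step from day 4.5 to day 7.5 was 102-fold in pooled CPM (counting interval 59.2 to 193), against 4.67-fold in WT (4.26 to 5.13). The fitted steps went from 6.66 to 7.94 (log2) without KO cl4_R1 and from 2.51 to 3.60 without WT_TU_R1 of day 4.5. These steps use day 4.5 libraries and were not tested. Day 7.5 has no library of WT lines TNT2 and cl43_WT_UT or of KO clones cl46 and cl51, which days 2.5 and 4.5 have. Every step to day 7.5 in this arm thus also changes the lines, and the part of that change was not tested.

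NPPB also rose in WT and untreated libraries, to low levels. From day 2.5 to day 7.5 it was at least 10.4-fold higher in WT (edgeR adjusted p 0.0175) and 24.7-fold in untreated libraries (counting interval 6.41 to 211, edgeR adjusted p 0.0387). The WT call was lost without WT_R2 (0.0547) or WT_TU_R2 (0.0524) of day 7.5, with no filter (0.0731) and with counts summed per line (0.0549). The untreated call was lost without day 2.5 replicate 1 (0.0634), 2 (0.101) or 3 (0.121), or day 7.5 replicate 2 (0.0619) or 3 (0.144), and in DESeq2 (0.135). Pooled NPPB in WT was 6.78-fold lower at day 7.5 than at day 4.5 (counting interval 3.80 to 13.3), while NPPA was higher. The fitted NPPB step went from −2.46 to −1.82 without WT_TU_R1 of day 4.5.

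The NPPA difference under HAse1.5 was also seen when counts were set against a heart muscle gene. At day 7.5 NPPA per 1000 TNNT2 counts was 45.2, 11.9 and 55.5 in untreated and 0.914, 0.180 and 0.185 in HAse1.5 replicates 1, 2 and 3. The mean log2 ratio was lower by 6.17 (two-sided exact permutation p 0.1, adjusted 0.2 over 8 such tests), where 0.1 is the smallest p that 3 against 3 can give. TNNT2 itself had 3482 ± 707 CPM in HAse1.5 and 6832 ± 663 CPM in untreated libraries (SD, n = 3 each, edgeR adjusted p 0.253). KO libraries had 29.04, 17.8 and 24.5 NPPA counts per 1000 TNNT2 counts in cl14_R1, cl4_R2 and cl4_R3, and WT libraries 39.9, 25.8 and 72.4 in WT_R1, WT_R2 and WT_TU_R2. These ranges overlapped, and the mean log2 ratio differed by −0.85 (exact permutation p 0.2, adjusted 0.32). Per 100000 counts of the 10 cardiomyocyte markers, NPPA had 236, 159 and 208 in these KO and 325, 244 and 593 in these WT libraries, which did not overlap (difference −0.86, exact permutation p 0.1, adjusted 0.16). NPPB per TNNT2 was lower in all 3 KO than in all 3 WT libraries (difference −2.97 with 0.5 added to each count, exact permutation p 0.1, adjusted 0.2).

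**Figure D4:**
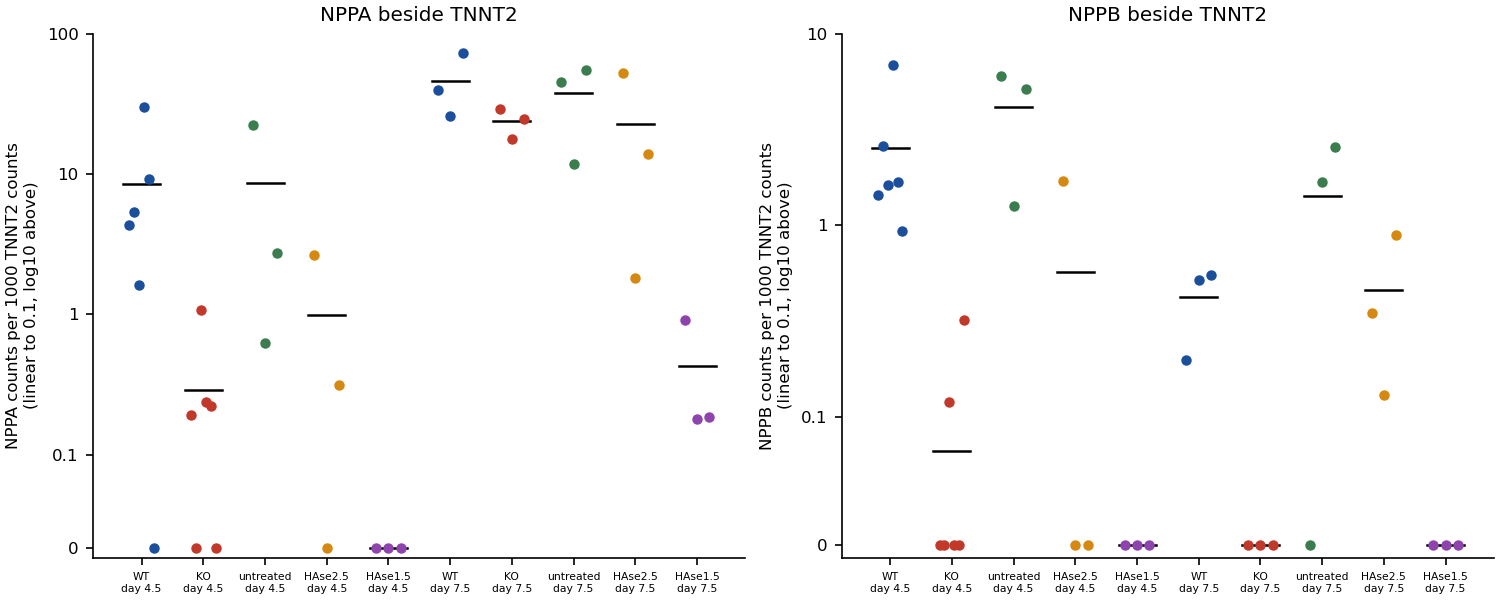
NPPA (left) and NPPB (right) counts per 1000 TNNT2 counts in each library of days 4.5 and 7.5, on an axis linear up to 0.1 and log10 above; bars are group means. At day 7.5 the HAse1.5 libraries, at 0.180 to 0.914 for NPPA, lie below all others, KO and WT overlap in NPPA, and in NPPB the KO libraries are at 0.

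Of the other genes of the pathway, the processing protease CORIN and the clearance receptor NPR3 moved with early hyaluronidase at day 7.5. CORIN had 68.7, 60.0 and 59.3 CPM in untreated and 12.2, 18.0 and 13.9 CPM in HAse1.5 replicates 1, 2 and 3, with no overlap, a log2 fold change of −2.20 with an SE of 0.59 (edgeR adjusted p 0.0436). That call held in 5 of 11 alternative fits. It was lost in each of the 6 that left out 1 of these libraries (edgeR adjusted p 0.0505 to 0.18). NPR3 had 13.4, 11.5 and 41.5 CPM in untreated and 46.5, 87.0 and 120 CPM in HAse1.5 libraries, and rose by 1.81 (SE 0.46, edgeR adjusted p 0.0286). It lost the threshold without untreated replicate 1 or 2 or HAse1.5 replicate 2 or 3 (edgeR adjusted p up to 0.142). Under HAse2.5 NPR3 had 22.8 ± 9.85 CPM at day 7.5 (SD, n = 3). At day 4.5 it was as high under HAse2.5 (70.5 ± 6.46 CPM) as under HAse1.5 (63.6 ± 24.3 CPM), against 22.1 ± 4.36 CPM in untreated libraries. At day 2.5 NPR3 had 4.33 ± 0.989 CPM in HAse1.5 and 13.4 ± 7.86 CPM in untreated libraries (SD, n = 3 each). Of 15 genes on the list, 12 were tested, 1 was called higher (all genes: 1.41%) and 1 lower (all genes: 1.92%), with a median log2 fold change of 0.12 against 0.02 over all genes.

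The other pathway genes did not pass. FURIN, the general precursor protease, had 74.1 ± 7.01 CPM in HAse1.5 and 68.1 ± 21.7 CPM in untreated libraries (SD, n = 3 each). NPR1, the receptor of both peptides, had 11.6 ± 4.42 and 23.9 ± 18.9 CPM (edgeR adjusted p 0.365), and NPR2, the receptor of the C-type peptide, 12.0 ± 7.69 and 5.64 ± 6.20 CPM (0.59; SD, n = 3 each). NPPC, the gene of that C-type peptide, had at most 3 counts in the 3 pooled libraries of HAse2.5 and none in untreated or HAse1.5 libraries.

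In KO, CORIN and NPR3 lay on the same sides as under HAse1.5 without passing the threshold. CORIN had 17.3, 20.8 and 15.5 CPM in KO cl14_R1, cl4_R2 and cl4_R3, against 54.4, 48.9 and 60.8 CPM in WT_R1, WT_R2 and WT_TU_R2. The groups did not overlap, with a log2 fold change of −1.65 (95% interval −3.08 to −0.22, edgeR adjusted p 0.794). CORIN passed in 1 of 12 alternative fits, that of only these libraries (0.00102). It passed in 0 of the 6 fits that left out 1 of these libraries (edgeR adjusted p 0.905 or more). NPR3 had 27.9, 13.0 and 23.0 CPM in KO and 3.08, 2.09 and 12.3 CPM in WT libraries, also apart (log2 fold change 1.84, edgeR adjusted p 0.894). The KO libraries at 27.9 and 23.0 CPM are of block C, which has no WT library at this day. Within block B, NPR3 had 13.0 CPM in KO against 2.09 and 12.3 CPM in WT. At day 4.5 it had 46.8 and 33.6 CPM in the WT libraries of block C and 2.50 to 12.5 CPM in those of blocks A and B. The part of the block in the NPR3 gap was not tested. Under HAse2.5, CORIN had 28.1 ± 8.69 CPM (SD, n = 3), below all untreated libraries, with a log2 fold change of −1.20 (edgeR adjusted p 0.352). No gene of the pathway list passed at day 7.5 in KO or under HAse2.5 (all genes: 0.348% and 0.659%). At day 2.5 CORIN was called higher in KO (3.23 ± 4.36 against 0.188 ± 0.293 CPM, SD, n = 6 each), the other direction. Of its 32 KO counts there, 18 came from cl46_R1, a clone with no day 7.5 library, and cl4_R1 and cl51_R1 had 0. At day 4.5 CORIN had 2.20 ± 2.17 CPM in KO and 12.7 ± 12.0 CPM in WT libraries (SD, n = 6 each). It had 0.676 ± 0.604 CPM in HAse1.5 and 13.0 ± 13.0 CPM in untreated libraries of that day (SD, n = 3 each).

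**Figure D5:**
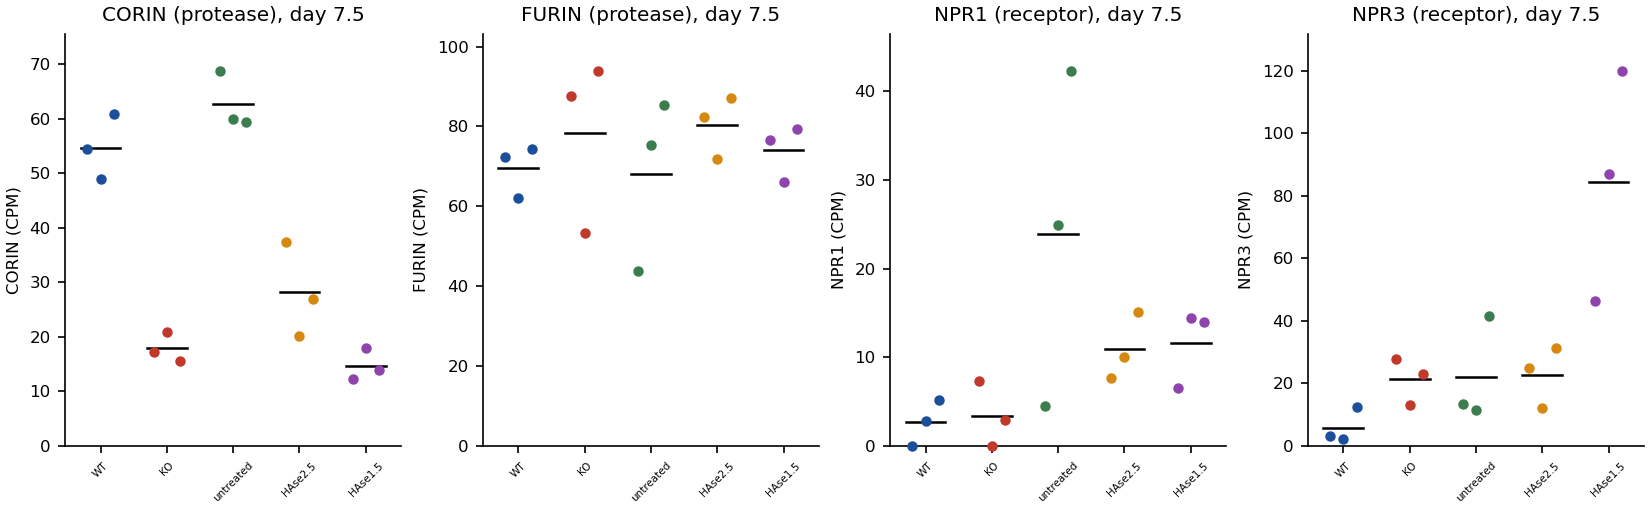
CORIN, FURIN, NPR1 and NPR3 in CPM in each day 7.5 library, with bars at group means and linear axes from 0. CORIN is at 48.9 CPM or more in all WT and untreated libraries and at 37.4 CPM or less in all KO, HAse2.5 and HAse1.5 libraries, and NPR3 is highest in HAse1.5 libraries.

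Among 13 tested transcription factors known to act on the natriuretic peptide genes, TBX5 and HAND2 were called under HAse1.5 at day 7.5, in opposite directions. Of all genes, 1.92% were called lower and 1.41% higher, and the list had a median log2 fold change of 0.08 (all genes 0.02). TBX5, a T-box factor of the left ventricle, fell from 248 ± 37.9 to 102 ± 39.1 CPM (SD, n = 3 each, log2 fold change −1.39, edgeR adjusted p 0.00882). HAND2, a basic helix-loop-helix factor, rose from 110 ± 28.6 to 374 ± 97.8 CPM (1.65, edgeR adjusted p 0.0184). TBX5 lost the threshold without HAse1.5 replicate 1 (0.0717), and HAND2 without untreated replicate 1 (0.0992) or 2 (0.0519) or HAse1.5 replicate 1 (0.1). GATA4 (199 ± 40.4 against 147 ± 30.5 CPM, edgeR adjusted p 0.51) and NKX2-5 (492 ± 127 against 521 ± 265 CPM, 0.845, SD, n = 3 each) did not pass. The part of the listed factors in the NPPA level was not tested. No factor on the list passed at day 7.5 in KO or under HAse2.5 (all genes: 0.348% and 0.659%). At day 2.5, 4 of 13 factors were called lower under HAse1.5, TBX5 among them (all genes: 1.15% in either direction). In KO at day 2.5 only TBX5 was called, also lower (all genes: 0.993% in either direction).

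Other load-responsive and muscle genes were lower with NPPA under HAse1.5. Of 8 tested genes on the list of stretch and fetal-programme genes, 2 were called lower and 0 higher, against 1.92% and 1.41% of all genes (median log2 fold change −1.84, all genes 0.02). ANKRD1, a titin-binding stress protein, fell from 1094 ± 652 to 20.0 ± 18.4 CPM (SD, n = 3 each, log2 fold change −5.92, edgeR adjusted p 0.00791). It missed the threshold without HAse1.5 replicate 2 (0.0519). MYH7, the slow myosin heavy chain, fell by 2.89 (edgeR adjusted p 0.00403) and kept the call in all 6 fits that left out a library.

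Of 10 cardiomyocyte markers, 3 were called lower and 0 higher (all genes: 1.92% lower and 1.41% higher). MYL7, the atrial-type light chain, fell by 3.22 (edgeR adjusted p 0.014), TNNC1, troponin C, by 2.55 (0.016), and ACTN2, a Z-disc protein, by 2.11 (0.00453). MYL7 and TNNC1 lost the threshold without HAse1.5 replicate 1 or 2 or untreated replicate 3 (edgeR adjusted p 0.0618 to 0.098). The list summed to 31902 to 36007 CPM in HAse1.5, 41577 to 66431 CPM in HAse2.5 and 67753 to 76627 CPM in untreated libraries. In KO it was 60924 to 68785 CPM against 63461 to 71890 CPM in WT. Of 6 tested chamber genes none was called under HAse1.5 (edgeR adjusted p 0.0503 for HEY2, 0.0803 for SMPX and 0.0922 for MYL3, each lower in all 3 libraries).

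Markers of other cell types also moved with the groups. The 5 endoderm markers summed to 50.4 to 314 CPM in untreated, 1.44 to 9.76 CPM in HAse1.5 and 1.38 to 5.24 CPM in HAse2.5 libraries at day 7.5. Of the 4 tested, AFP (at least 45.5-fold lower, edgeR adjusted p 0.00167) and APOB (21.0-fold, 0.00571) were called lower under HAse1.5 (all genes: 1.92%). Both were called lower under HAse2.5 too (edgeR adjusted p 0.0127 and 0.0106, all genes 0.314%), as was MYH7 among the stretch genes (−2.37, edgeR adjusted p 0.0385). Under HAse2.5 the MYH7 call held in 1 of 6 fits that left out a library, the AFP call in 2 of 6 and the APOB call in 3 of 6. In KO the endoderm markers summed to 122 to 302 CPM at day 7.5, against 41.1 to 94.4 CPM in WT. The groups were apart, in the other direction, with 0 of 5 called against 0.348% of all genes (median log2 fold change 2.05). The 5 epicardial markers summed to 5.35 to 29.7 CPM in untreated libraries. HAse1.5 libraries (0.719 to 2.09 CPM) lay below these, and HAse2.5 libraries (0 to 5.24 CPM) did so by a narrow margin. Of the 5 epicardial markers 1 was tested. It was called lower neither under HAse1.5 (all genes: 1.92%) nor under HAse2.5 (all genes: 0.314%). WT (0 to 1.29 CPM) and KO libraries (1.33 to 2.30 CPM) of day 7.5 were low too. TBX18 was at 0 under HAse1.5, in WT and in KO. Endothelial sums overlapped (147 to 240 CPM untreated, 130 to 275 CPM HAse1.5), and pluripotency markers summed to at most 6.27 CPM. Fibroblast sums overlapped (250 to 846 CPM untreated, 393 to 427 CPM HAse1.5). The part of these cell types in the NPPA and NPPB levels was not tested.

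Genes with the pattern most like each peptide gene were named by Pearson's r of log2 CPM over 14047 genes, as a description. Over the 16 group means NPPA was closest to MYPN (r = 0.97), FBXL22 (0.97), LIMS2 (0.96), SLC16A7 (0.95) and LINC02925 (0.95), of which MYPN encodes a sarcomere protein. NPPB was closest to CYCS (0.92), which encodes cytochrome c, then COMTD1, CYTOR and UBL4A (0.86 each) and CDV3 (0.84). None of these genes was shared, and NPPA and NPPB had an r of 0.26 with each other.

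Over the 36 libraries of days 4.5 and 7.5, after subtraction of the mean of each arm and day, the 2 genes were closer (r = 0.79). NPPA was then closest to LINC01405 (0.88), FBXL22 (0.88), C1orf105 (0.87), ACTN2 (0.86) and TCAP (0.85), the last 2 being Z-disc genes. With a prior count of 0.5 in place of 2, only ACTN2 and C1orf105 stayed among the 5, beside HSPB7, HACD1 and ENO3; of the 5 for NPPB, 4 stayed. NPPB was closest to TAGLN (0.89), a smooth-muscle actin-binding protein gene, PCGF5 (0.83), ANKRD1 (0.83), POPDC2 (0.83) and MYL7 (0.83). These libraries share their treatment groups, lines and depths, and the day 4.5 libraries among them led to the choice of NPPB.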

How the data were processed

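Gene counts of 65 QuantSeq 3′ libraries were deposited by the authors as 1 table of raw counts. The submitters' processing notes name featureCounts, Subread 1.6.2 and hg38; the aligner, strand setting, treatment of multimapping reads and any molecular identifiers are not given in the sources used here. Columns were matched to samples by name, and 4 columns of no listed sample were not used. All 58735 gene IDs matched GENCODE 29, and 85 of 86 list genes were found. Each arm was fitted in edgeR 4.0.16 (R 4.3.3; filterByExpr with a minimum count of 10, TMM, robust quasi-likelihood, 1 mean per group), with Benjamini-Hochberg adjustment over all genes tested and a threshold of 0.05. Levels are counts scaled to a library total of 1000000 (CPM). Alternatives were DESeq2 1.42.0, other size factors, no filter, blocks, only the libraries compared, counts summed per line, and leaving out each library. In the enzyme arm, replicate numbers stand for lines, so they pair the samples: 15 of 21 same-line pairs of deviations correlated over 0.1, against 5 of 42 pairs of different lines. Scripts were tested on simulated data. Named genes are the 2 members, the overlapping CLCN6, CORIN, FURIN, NPPC, NPR1 to NPR3, per list up to 3 called genes with the largest change at day 7.5, and the 5 most alike. GATA4, NKX2-5, HEY2, SMPX, MYL3 and TBX18 were added after their values were seen, and 1 gene of the rule is not reported here. The members and lists were chosen with earlier results of these data known.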

Additional observations from a re-analysis of the deposited data

Results flagged for a closer look

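In each group of 4 to 10 libraries, the highest and lowest NPPA and NPPB levels were compared with the rest by Dixon's criterion, in 10 group and gene combinations, and 3 NPPA values stood far from their groups. WT_TU_R1 at day 4.5 had 169 CPM of NPPA (471 counts), with a gap of 0.719 of the range of the 6 WT libraries. KO cl4_R1 at day 4.5 had 4.57 CPM (9 counts), with a gap share of 0.733. KO cl4_R2 at day 2.5 had 4.46 CPM (7 counts), with a gap share of 0.648. Chance marks about 1 in 20 groups of normally distributed values. That rate need not hold for low and skewed counts, and the latter values rest on 9 and 7 counts.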

How the results depend on the processing

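With few counts, several comparisons that did not pass the threshold changed sign. KO against WT at day 1.5 went to −0.15 (NPPA) and −0.41 (NPPB) with counts summed per line, and leaving out a library gave −0.38 to 0.94 and −0.26 to 0.80. Leaving out a library also gave −0.49 to 1.59 for NPPA in KO against WT at day 2.5, −2.56 to 3.86 for NPPB in HAse1.5 against untreated at day 2.5, −1.01 to 1.6004 for NPPA in KO from day 2.5 to 4.5, −1.37 to 0.46 for NPPB in untreated and −0.53 to 4.90 in HAse2.5 libraries from day 4.5 to 7.5, and −4.47 to 0.0 for NPPB in HAse1.5 from day 2.5 to 7.5. With the replicate block, the KO step of NPPA from day 2.5 to 4.5 was −0.020 and the untreated NPPB step from day 4.5 to 7.5 was 0.17. In the genotype arm the block is a run of library numbers, where 26 of 37 same-block pairs correlated over 0.1, and it gave −0.01 for NPPA and −4.14 for NPPB in KO at day 7.5. At day 7.5 NPPA in HAse1.5 against untreated ran from −8.50 to −7.33 with a library left out. NPPB there was −6.90 with no filter and −7.38 with the block, both passing; against a group at 0 these fitted values depend on the prior count. NPPA in HAse1.5 against HAse2.5 passed with the block (−6.42) and in DESeq2 (−6.81). The difference between the KO and HAse1.5 effects passed with no filter (6.71), the block (8.45) and only the libraries compared (6.73). The cause of these changes was not tested. Genes called at day 7.5 were 48 in KO (27 without KO cl14_R1 to 193 with only the libraries compared), 425 in HAse1.5 (145 without HAse1.5 replicate 1 to 713 with no filter), 84 in HAse2.5 (3 without HAse2.5 replicate 3 to 377 without untreated replicate 2) and 1 in HAse1.5 against HAse2.5 (up to 80 with no filter).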
